A study of Rattus norvegicus with 40 samples.

Results

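Tubular injury markers were followed in rat kidney over 9 genes: Lcn2, Spp1, Gpnmb, Clu, Krt19, Vim, Cd44, Anxa1 and Vcam1. They were taken by name, of 12198 genes with a singly annotated probe, and every array probe annotated to them was used, which gave 10 of the 33849 probes on the array (1 probe per gene and 2 for Vcam1). All 10 were among the 24993 probes tested. The genes were chosen with earlier results of these data known. Shares of members called, set beside those of all probes, are thus a description and not independent support. Kidney RNA came from male rats at 16 weeks of age of 2 strains. SHRSP/Izm rats are spontaneously hypertensive and stroke-prone, WKY/Izm rats are normotensive, and they are called SHRSP and WKY here.

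In each strain rats had received 1 of 4 vehicles or 1 of 6 blood pressure lowering drugs. The vehicles were H2O, Solvent A (PEG300, EtOH and NaHCO3), Solvent B (NaOH) and Solvent C (0.5% MC). The drugs were enalapril (20 mg/kg/day, an inhibitor of angiotensin-converting enzyme), candesartan (5 mg/kg/day, an angiotensin receptor blocker), chlorothiazide (20 mg/kg/day, a thiazide diuretic), carvedilol (50 mg/kg/day, which blocks beta and alpha-1 adrenoceptors), amlodipine (20 mg/kg/day, a calcium channel blocker) and hydralazine (10 mg/kg/day, a direct vasodilator). The 20 groups of strain and treatment held 2 arrays each, so a strain had 8 vehicle arrays and 12 drug arrays. The label of every array listed 2 animals. How their RNA was combined is not stated in the labels, so p-values measure the spread between arrays.

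Injured tubular cells lose part of their transport function, flatten, and take on a state that shares features with developing epithelium. In that state they secrete proteins that reach urine and interstitium, among them the iron-siderophore carrier Lcn2 (NGAL), the matrix phosphoprotein Spp1 (osteopontin) and the chaperone Clu (clusterin). They also make intermediate filament proteins (Vim, and the simple epithelial keratin Krt19) and surface molecules that bind matrix or leukocytes (Cd44, a hyaluronan and osteopontin receptor, and Vcam1, a ligand of leukocyte integrins). Gpnmb is a transmembrane glycoprotein of lysosomes and the cell surface, known from both macrophages and tubular epithelium. Anxa1 (annexin A1) is a phospholipid-binding protein that limits inflammation.

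Gpnmb, Spp1, Lcn2 and Cd44 carried the largest drug changes described below, and the 250 bases before their starts are shown so that their promoters can be compared. The sequences are RefSeq's, build GRCr8, written 5′ to 3′ on the gene's strand, with motif matches in capitals.
Gpnmb: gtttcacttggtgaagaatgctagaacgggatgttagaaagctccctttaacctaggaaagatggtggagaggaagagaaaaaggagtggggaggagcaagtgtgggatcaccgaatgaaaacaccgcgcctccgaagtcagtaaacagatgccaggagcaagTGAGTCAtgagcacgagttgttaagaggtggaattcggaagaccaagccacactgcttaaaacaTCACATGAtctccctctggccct
Spp1: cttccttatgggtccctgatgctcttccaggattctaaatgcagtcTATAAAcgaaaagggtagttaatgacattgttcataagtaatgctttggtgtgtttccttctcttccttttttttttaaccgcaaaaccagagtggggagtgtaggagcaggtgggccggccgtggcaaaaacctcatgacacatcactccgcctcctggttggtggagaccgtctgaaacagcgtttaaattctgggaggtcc
Lcn2: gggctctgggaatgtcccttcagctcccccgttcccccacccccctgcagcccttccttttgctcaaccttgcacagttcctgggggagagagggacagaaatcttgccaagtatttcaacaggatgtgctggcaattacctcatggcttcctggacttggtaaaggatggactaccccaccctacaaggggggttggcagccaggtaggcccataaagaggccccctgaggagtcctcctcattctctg
Cd44: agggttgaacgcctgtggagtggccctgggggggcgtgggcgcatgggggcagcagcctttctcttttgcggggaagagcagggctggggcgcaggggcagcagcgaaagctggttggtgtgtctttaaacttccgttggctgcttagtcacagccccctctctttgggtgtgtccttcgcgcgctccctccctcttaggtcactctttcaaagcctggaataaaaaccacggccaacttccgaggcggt
They lie at chr4:79340878-79341127 (plus strand), chr14:5619805-5620054, chr3:36081781-36082030 and chr3:109699425-109699674 (minus strand). The Spp1 and Cd44 windows lie inside the annotated gene spans, whose upstream ends are at 5620695 and 109699776. The Lcn2 window overlaps that end of its gene (36081851). Matches, and their absence, thus hold for the start used and not for other starts of these genes. Promoters were found for 7 of the 9 genes. The same window was searched on both strands for TGANTCA (the AP-1 motif), TCANNTGA (an E-box bound by MITF and TFE factors), TTCNNNGAA (the STAT motif) and TATAAA. The Gpnmb promoter held TGAGTCA at 87 to 81 bases and TCACATGA at 23 to 16 bases before the start. Each of these motifs occurs in few promoters of the table (6.34% for AP-1 and 6.65% for the E-box, of 33465). The Spp1 window held TATAAA at 204 to 199 bases before the start, a motif found in 12.9% of promoters. None of the searched motifs was in the Lcn2 or Cd44 window, and STAT matches (7.67% of promoters) were in none of the 7. A match is a description of letters and not of a bound site.

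Values are log2 of the quantile-normalised intensity, on which each array's median probe lies near 0. Changes are differences of log2 values ± standard error from limma fitted to all 40 arrays, and a probe rose or fell where its Benjamini-Hochberg adjusted p over all tested probes was under 0.05. Between 59.3% and 72.6% of probes on an array carried the scanner's good flag, and 2 arrays per group limit the precision. The tissue label fitted markers of several segments. Lrp2 of the proximal tubule, Umod of the thick ascending limb, Slc12a3 of the distal convoluted tubule, Aqp2 of the collecting duct and Nphs1 of podocytes each had a good flag on 40 of 40 arrays. Other markers of these segments had it on fewer: Slc34a1 (proximal tubule) on 37, Pvalb (distal convoluted tubule) on 21 and Synpo (podocytes) on 0. Some listed markers were not measured. Of the members, Lcn2, Clu, Krt19, Vim, Cd44 and Anxa1 had a good flag on all 40 arrays, Spp1 and Gpnmb on 39, the Vcam1 probe GE21849 on 39 and the Vcam1 probe GE20039 on 30. GE21849 had no value on SHRSP carvedilol replicate 1, which its fit left out. 1 SHRSP array, H2O replicate 2, held the highest value of the 8 SHRSP vehicle arrays on all 10 member probes. The main results that rest on it are given with and without it.

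**Figure D1:**
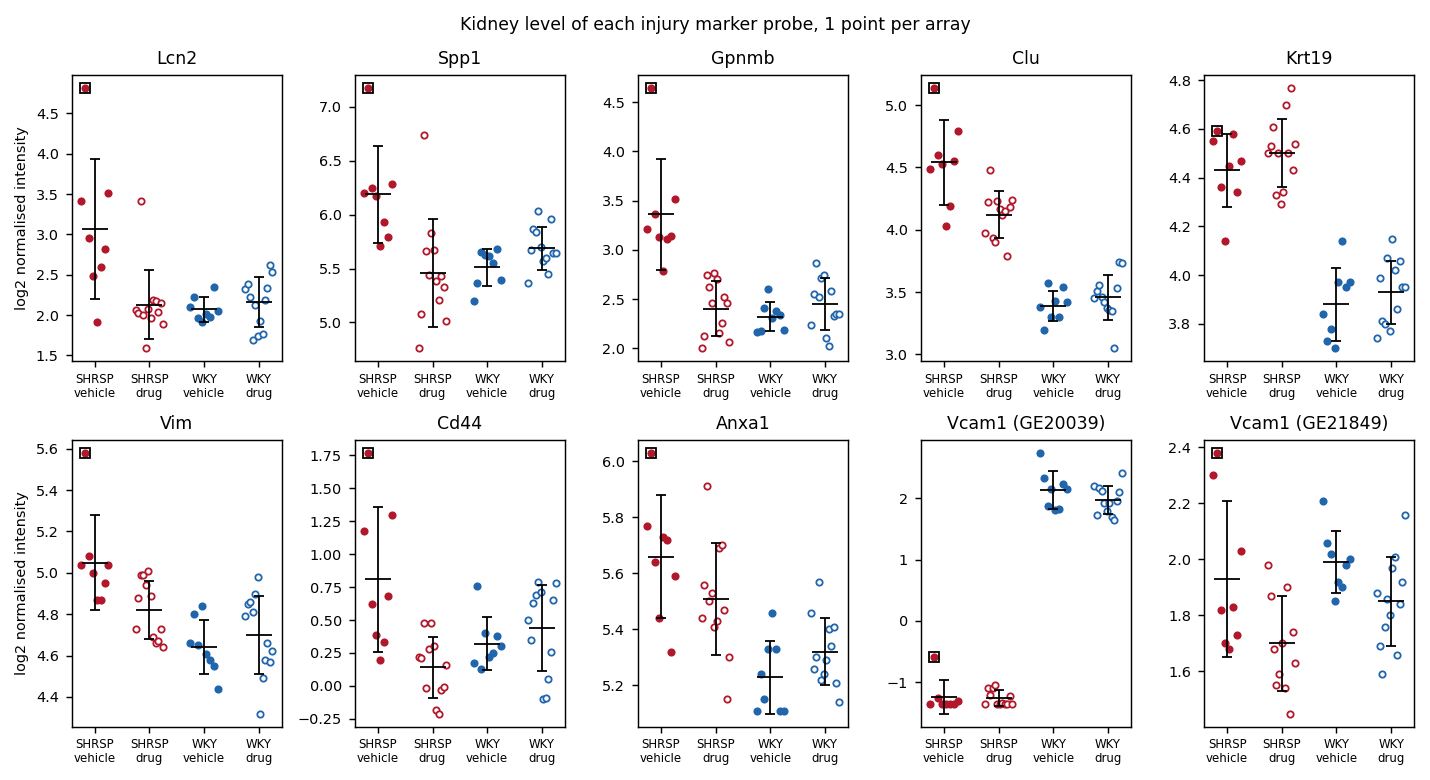
Log2 normalised intensity of each member probe, 1 point per array, for SHRSP (red) and WKY (blue) arrays with vehicle (filled, 8 per strain) or drug (open, 12 per strain). Black bars are mean and SD, and the square marks SHRSP H2O replicate 2. On the Gpnmb panel the highest SHRSP drug array (2.76) lies below the lowest SHRSP vehicle array (2.78).

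Without drug, 8 of the 10 member probes were higher in SHRSP than in WKY, 1 was lower and 1 did not pass, in a comparison that called 21.8% of all tested probes (2788 higher and 2661 lower). The median difference of the members was 0.52. The increases reached 2.22-fold for Clu, 2.06-fold for Gpnmb and 2.0-fold for Lcn2. Spp1 rose 1.6-fold, Krt19 1.46-fold, Cd44 1.4-fold, Anxa1 1.34-fold and Vim 1.33-fold.

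Among the secreted products, Clu showed the steadiest separation. Its log2 level ran from 4.03 through a median of 4.54 to 5.14 on the 8 SHRSP vehicle arrays and from 3.2 through 3.4 to 3.57 in WKY, so that every SHRSP array lay above every WKY array (1.15 ± 0.09, adjusted p = 3.24e-10). Lcn2 ran from 1.92 through 2.89 to 4.82 in SHRSP and from 1.92 through 2.03 to 2.35 in WKY. Here 7 SHRSP arrays lay above all WKY arrays while Solvent C replicate 1 lay among them, and the difference was 1.00 ± 0.19 (adjusted p = 0.000294). Spp1 was the brightest of these probes in SHRSP, from 5.71 through 6.19 to 7.18, against 5.2 through 5.58 to 5.68 in WKY. The Spp1 ranges nearly met but did not overlap (0.68 ± 0.14, adjusted p = 0.000901). Brightness of different probes is not a comparison of the genes' levels.

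Gpnmb ran from 2.78 through 3.18 to 4.65 in SHRSP vehicle arrays and from 2.16 through 2.32 to 2.6 in WKY, again without overlap (1.04 ± 0.13, adjusted p = 1.14e-06). Krt19 rose by 0.55 ± 0.06, Vim by 0.42 ± 0.06 and Anxa1 by 0.43 ± 0.06. Vim's ranges, 4.87 to 5.58 against 4.44 to 4.84, did not overlap, whereas 1 SHRSP array for Krt19 and 2 for Anxa1 lay within the WKY range. Cd44 rose by 0.49 ± 0.11 (adjusted p = 0.00257), but only 3 SHRSP arrays lay above all WKY arrays. Without SHRSP H2O replicate 2 the same 9 probes passed, with Lcn2 at 0.82, Gpnmb at 0.86 and Cd44 at 0.41.

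The Vcam1 probes did not agree. GE20039 fell by 3.38 ± 0.10 in SHRSP (adjusted p = 7.09e-18). Its WKY vehicle arrays ran from 1.81 to 2.74, while SHRSP vehicle arrays ran from the floor of -1.36 to -0.59 and 5 of the 8 carried a good flag. Of all 20 SHRSP arrays 10 lay at the floor, so the size of this difference depends on it (-2.5 to -3.86 over the alternatives). GE21849, annotated to the same RefSeq transcript accession, differed by -0.06 ± 0.05 (adjusted p = 0.451), with SHRSP from 1.68 to 2.38 and WKY from 1.85 to 2.21. Probe sequences were not analysed here, and the cause of the disagreement was not tested.

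The vehicle groups of SHRSP were not alike. Mean Gpnmb was 3.93 with H2O, 3.33 with Solvent A, 3.24 with Solvent B and 2.94 with Solvent C, and in WKY the same means ran from 2.16 to 2.51. Lcn2 followed the same order in SHRSP, at 4.12, 3.17, 2.73 and 2.26. With 2 arrays per vehicle, neighbours in these orders overlapped or nearly did, the H2O pair spanning 3.21 to 4.65 for Gpnmb and the Solvent A pair 3.14 to 3.52. The vehicles were each scanned in a different session, so vehicle and session cannot be told apart.

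Other genes of tubular injury and repair were followed in a list of 42, of which 34 were measured. In SHRSP vehicle arrays 15 rose, 5 fell and 14 did not pass, with a median of 0.19 against 0.00 over all probes. The list was not split by the direction expected in injury. It also holds the thick ascending limb marker Umod, which rose (0.28 ± 0.08), so these counts alone do not mark injury. The smallest p-values belonged to Ccn1 (3.33 ± 0.15), a matricellular protein, Kl (klotho, 1.62 ± 0.10), the cytokine Il18 (0.57 ± 0.05) and the progenitor marker Prom1 (0.56 ± 0.05). Of 28 receptors, ligands and binding partners of the members, 16 were measured. Of these 4 rose, a share near the 21.8% of all probes called, namely Mmp9 (0.69 ± 0.09), which travels in complex with Lcn2, the annexin Anxa2 (0.44 ± 0.12), the Vcam1 receptor subunit Itga4 (0.18 ± 0.05) and the proteoglycan Sdc4 (0.16 ± 0.04).

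Markers of other cell types also differed. Of 11 measured macrophage markers (of 12) 9 rose in SHRSP vehicle arrays, led by Fcgr3a (0.99 ± 0.06), Lyz2 (1.07 ± 0.07), Ctss (0.61 ± 0.06) and Cd68 (0.53 ± 0.07), and their summed intensity was 89.2 to 113.0 against 65.9 to 77.0 in WKY. All 3 measured smooth muscle markers (of 4) rose. Of 6 measured fibroblast markers (of 7) 1 rose and 1 fell, and of 6 measured endothelial markers (of 7) 4 rose and 1 fell. Neutrophil markers, which matter for Lcn2 because neutrophil granules hold it, were dim: 3 of 7 were measured, 0 passed by limma (1 at an unadjusted p under 0.05), none had a good flag on every array, and their summed intensity was 0.523 to 1.24 in SHRSP and 0.696 to 1.33 in WKY. In whole kidney RNA, more cells of a type and more RNA per cell cannot be told apart, and the part of these cells in the member differences was not tested.

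On drug arrays fewer members separated the strains. Over 12 drug arrays against 12, in a comparison that called 26.1% of all probes, 3 member probes rose, 3 fell and 4 did not pass. Clu (0.66 ± 0.07) and Krt19 (0.57 ± 0.05) stayed higher in SHRSP with no overlap between the strains, and Anxa1 was higher by 0.19 ± 0.05. Lcn2 differed by -0.03 ± 0.15, Gpnmb by -0.04 ± 0.10, Spp1 by -0.23 ± 0.12 and Vim by 0.11 ± 0.05, none past the threshold (adjusted p = 0.936, 0.825, 0.158 and 0.0925). Cd44 was lower in SHRSP (-0.30 ± 0.09, adjusted p = 0.0192), and with array weights this did not pass (adjusted p = 0.0521). The Vcam1 probes were lower too, at -3.24 ± 0.08 (GE20039) and -0.13 ± 0.04 (GE21849, adjusted p = 0.103 with array weights).

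The change of the strain difference was itself tested, as a comparison added after the values were seen, which called 0.196% of all probes. Gpnmb fell by 1.08 ± 0.16 (adjusted p = 0.00504), Spp1 by 0.91 ± 0.18 (adjusted p = 0.036) and Cd44 by 0.78 ± 0.15 (adjusted p = 0.0203). Lcn2 (-1.02 ± 0.24, adjusted p = 0.0922), Clu (-0.49 ± 0.11, adjusted p = 0.0734), Vim (-0.30 ± 0.08) and Anxa1 (-0.24 ± 0.07) did not pass. Krt19 changed by 0.02 ± 0.08. Without SHRSP H2O replicate 2, Gpnmb (-0.90) and Cd44 (-0.71) passed and Spp1 (-0.79) did not. Among the other injury genes 2 of 34 fell, the injury receptor Havcr1 (also called KIM-1) on probe GE13234 (-1.61 ± 0.26) and the protease inhibitor Timp1 (-0.77 ± 0.12). On drug arrays this Havcr1 probe was lower in SHRSP than in WKY (-2.35 ± 0.17). That difference is larger than its change, so its estimate was below 0 on vehicle arrays too. Unlike Gpnmb, Spp1 and Cd44, this probe thus showed no excess in SHRSP on vehicle arrays by its estimate, whose test is not given here. It still fell in SHRSP with enalapril and hydralazine, as given below.

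**Figure D2:**
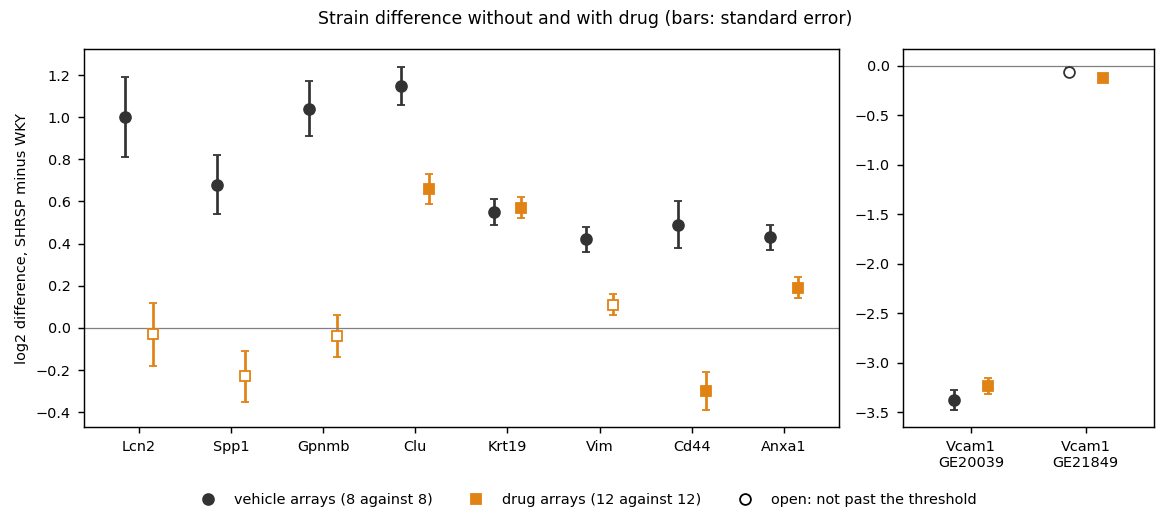
Log2 difference between SHRSP and WKY for each member probe on vehicle arrays (circles, 8 against 8) and drug arrays (squares, 12 against 12), with standard errors and open symbols where the adjusted p was 0.05 or more. Lcn2, Spp1 and Gpnmb move from 1.00, 0.68 and 1.04 to near or below 0, Krt19 stays at 0.55 and 0.57, and the Vcam1 probes lie far apart in both comparisons.

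The effect of each drug was taken against a vehicle of the same strain. The labels do not name a drug's vehicle, so the vehicle scanned together with the drug was used. These were H2O with enalapril, Solvent C with carvedilol, Solvent B with chlorothiazide and Solvent A with candesartan. H2O was assumed for amlodipine and hydralazine, whose arrays were scanned in sessions that held no vehicle array. Enalapril, amlodipine and hydralazine thus share the same H2O arrays, and their changes are not independent of each other or of SHRSP H2O replicate 2.

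Enalapril in SHRSP lowered 7 of the 10 member probes, where 0.992% of all probes were called (54 rose and 194 fell). The members' median change was -0.61. The largest decreases were in Lcn2 (4.21-fold), Gpnmb (3.65-fold), Spp1 (3.4-fold) and Cd44 (2.39-fold), followed by Clu (1.64-fold), Vim (1.42-fold) and Vcam1 on GE21849 (1.33-fold).

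Gpnmb read 3.21 and 4.65 on the H2O arrays and 2.00 and 2.12 on the enalapril arrays. Both enalapril arrays were thus below both H2O arrays, and the change was -1.87 ± 0.25 (adjusted p = 0.00056). Lcn2 read 3.42 and 4.82 with H2O against 2.06 and 2.03 with enalapril (-2.08 ± 0.37, adjusted p = 0.00616). Spp1 read 6.20 and 7.18 against 4.76 and 5.08 (-1.77 ± 0.28, adjusted p = 0.00233), and these enalapril arrays were below all 8 WKY vehicle arrays. Cd44 read 1.18 and 1.77 against 0.22 and 0.21 (-1.26 ± 0.22, adjusted p = 0.00616).

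Clu, the chaperone, read 4.49 and 5.14 with H2O and 3.97 and 4.22 with enalapril (-0.72 ± 0.17, adjusted p = 0.0413). Vim fell by 0.51 ± 0.12 (adjusted p = 0.0406) and Vcam1 on GE21849 by 0.41 ± 0.10 (adjusted p = 0.0398). Krt19 (-0.06 ± 0.12) and Anxa1 (-0.41 ± 0.11, adjusted p = 0.101) did not pass. Without SHRSP H2O replicate 2 only Gpnmb passed (-1.15 ± 0.16, adjusted p = 0.00074), while Lcn2 was -1.37 (adjusted p = 0.189), Spp1 -1.28 (adjusted p = 0.0705) and Cd44 -0.96 (adjusted p = 0.154). Fewer of all probes were called too without SHRSP H2O replicate 2. With only the H2O and enalapril arrays of SHRSP in the fit 0 members passed, and the share of all probes called there is not given here.

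Of the other injury genes 3 of 34 fell with enalapril in SHRSP: Timp1 (-1.27 ± 0.18), Havcr1 on GE13234 (-2.77 ± 0.41) and the chemokine Cxcl16 (-0.41 ± 0.09). None of the 16 partners of the members and none of the 11 macrophage or 6 fibroblast markers passed by limma in that comparison, with 3, 2 and 2 at an unadjusted p under 0.05. Summed macrophage intensity was 82.1 and 82.7 with enalapril against 89.2 and 101.0 with H2O, and summed fibroblast intensity 65.5 and 66.5 against 77.4 and 83.1. Their part in the member changes was not tested.

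Candesartan, which acts on the same hormone system, lowered no member past the threshold in SHRSP (0 of 10 by limma, 0.052% of all probes called). At an unadjusted p under 0.05 there were 6 member probes and 857 of all probes. Gpnmb read 3.14 and 3.52 with Solvent A against 2.46 and 2.06 with candesartan (-1.07 ± 0.25, adjusted p = 0.203). Cd44 read 0.68 and 1.30 against -0.01 and 0.16 (-0.92 ± 0.22, adjusted p = 0.214). Lcn2 read 2.82 and 3.51 against 2.15 and 1.89 (-1.15 ± 0.37) and Spp1 5.79 and 6.28 against 5.33 and 5.01 (-0.87 ± 0.28). In each of these 4 genes both candesartan arrays were below both Solvent A arrays, and with array weights the same 4 passed (adjusted p of 0.00553 to 0.0359). How many of all probes passed with array weights is not given here, and probes with the same order of arrays were not counted.

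Chlorothiazide (0.048% of all probes called) and carvedilol (0.192%) also moved 0 of 10 members past the threshold in SHRSP by limma, with 1 member probe each, and 794 and 1923 of all probes, at an unadjusted p under 0.05. Gpnmb changed by -0.51 ± 0.25 with chlorothiazide, from 3.36 and 3.13 to 2.76 and 2.70. It changed by -0.73 ± 0.25 with carvedilol, from 2.78 and 3.11 to 2.15 and 2.26. Lcn2 changed by -0.71 ± 0.37 with chlorothiazide and by -0.08 ± 0.37 with carvedilol, where Solvent C (1.92 and 2.60) was already low. Cd44 changed by -0.12 ± 0.22 and -0.46 ± 0.22. The difference between the changes with enalapril and candesartan and those with chlorothiazide and carvedilol passed for 0 members (0.12% of all probes called, and 8 members and 2007 of all probes at an unadjusted p under 0.05), with Lcn2 at -1.22 ± 0.37 (adjusted p = 0.233) and Cd44 at -0.79 ± 0.22 (adjusted p = 0.187).

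Hydralazine in SHRSP lowered 8 of 10 member probes, all but Krt19 and the Vcam1 probe GE20039, and amlodipine lowered 5, against backgrounds of 15.6% and 20.3% of all probes. Lcn2 fell by 2.31 ± 0.37 with hydralazine (1.59 and 2.04 on its arrays) and by 1.42 ± 0.37 with amlodipine, whose arrays read 3.41 and 2.00. Gpnmb fell by 1.44 ± 0.25 and 1.25 ± 0.25, Cd44 by 1.35 ± 0.22 and 1.24 ± 0.22, and Clu by 0.97 ± 0.17 and 0.61 ± 0.17. Spp1 fell by 1.25 ± 0.28 with hydralazine but with amlodipine it read 6.74 and 5.66, overlapping H2O (-0.49 ± 0.28, adjusted p = 0.239). Vcam1 on GE21849 fell by 0.82 ± 0.10 and 0.72 ± 0.10. Without SHRSP H2O replicate 2, 5 members passed for hydralazine (6.51% of all probes) and 3 for amlodipine (11.8%). With hydralazine Lcn2 was then -1.61, Gpnmb -0.72, Cd44 -1.06, Clu -0.64 and GE21849 -0.77, and the calls of Spp1 (-0.76), Vim (-0.24) and Anxa1 (-0.27) were lost. With amlodipine Gpnmb was -0.53, Cd44 -0.95 and GE21849 -0.68, the calls of Lcn2 (-0.72) and Clu (-0.28) were lost, and Spp1 was 0.00. With scan session as a fixed block 1 member passed for each drug, with 363 (hydralazine) and 787 (amlodipine) of all probes called.

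Other injury genes and macrophage markers moved both ways with these drugs in SHRSP, where 15.6% (hydralazine) and 20.3% (amlodipine) of all probes were called. The share called was near that of all probes for the other injury genes with amlodipine. For the partners of the members it was below that of all probes with both drugs. Of the 34 other injury genes 5 rose and 5 fell with hydralazine, among them Havcr1 on GE13234 (-2.30 ± 0.41), Timp1 (-1.20 ± 0.18), Cxcl16 (-0.53 ± 0.09) and Igfbp7 (0.47 ± 0.09). With amlodipine 4 rose and 3 fell, led by Timp2 (0.76 ± 0.10), Cxcl16 (-0.66 ± 0.09), Umod (0.98 ± 0.15) and Igfbp7 (0.50 ± 0.09). Of 16 partners 1 fell with hydralazine and 2 with amlodipine. Of 11 macrophage markers 1 rose and 2 fell with hydralazine and 2 rose and 4 fell with amlodipine, where Lyz2 (1.43 ± 0.13) rose and Cd68 (-0.87 ± 0.14) fell. Fibroblast markers fell for 2 and 3 of 6, endothelial markers for 2 and 3 of 6, and smooth muscle markers for 1 and 2 of 3. The summed macrophage intensity was 98.2 and 106.0 with hydralazine and 90.7 and 94.8 with amlodipine against 89.2 and 101.0 with H2O. The summed endothelial intensity was 61.6 and 69.4 with hydralazine and 60.2 and 63.9 with amlodipine against 71.5 and 74.5 with H2O. The part of these cells in the member changes was not tested.

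**Figure D3:**
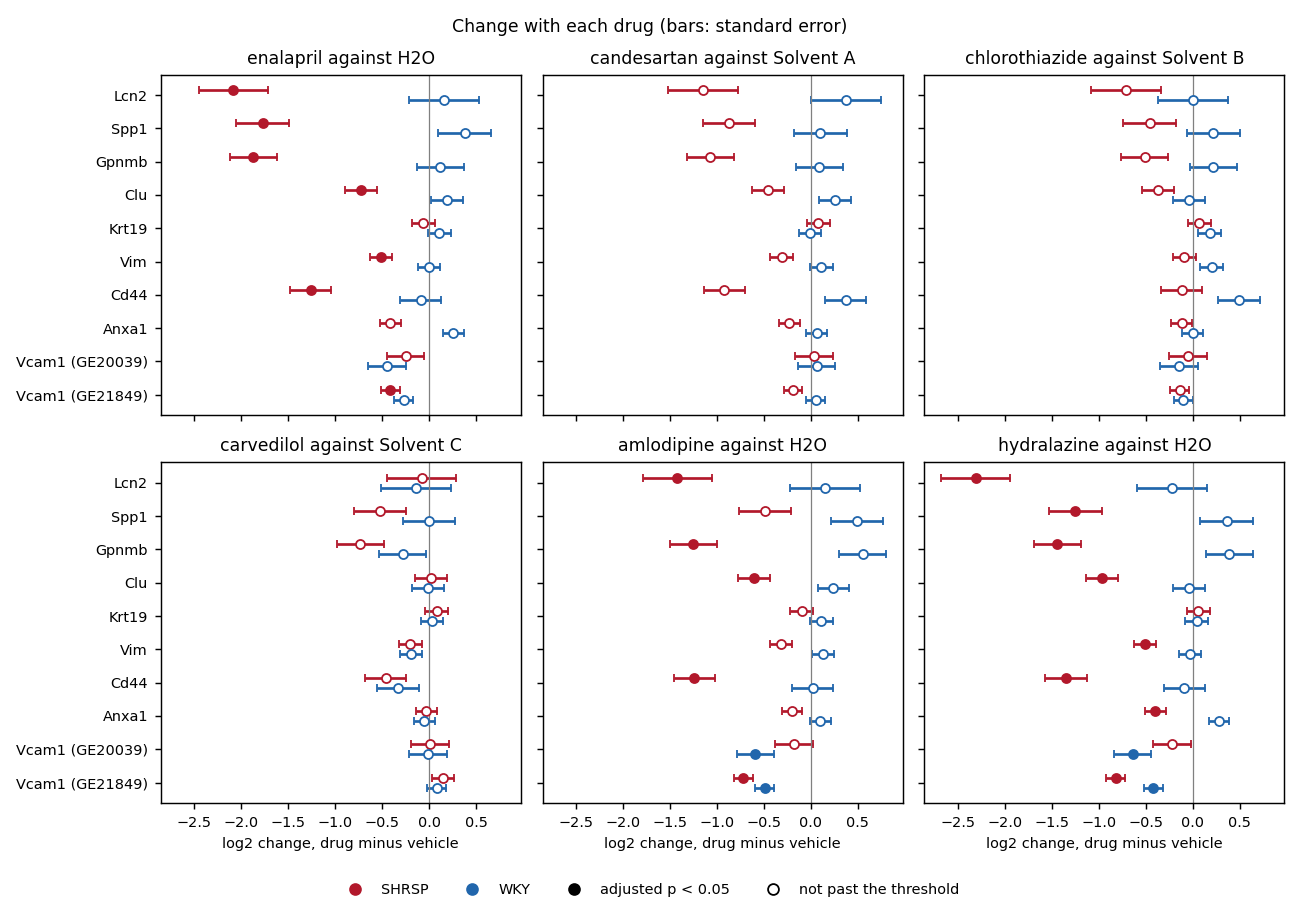
Log2 change of each member probe with each drug against its vehicle in SHRSP (red) and WKY (blue), with standard errors and filled symbols where the adjusted p was under 0.05. In SHRSP the points for Lcn2, Spp1, Gpnmb and Cd44 lie left of 0 with every drug, and in WKY only Vcam1 points are filled.

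Over the 4 comparisons in which SHRSP drug arrays share scan session with their vehicle (enalapril, candesartan, chlorothiazide and carvedilol, a set chosen with earlier results of these data known), the mean change passed for 6 of 10 member probes, where 0.456% of all probes were called. Gpnmb fell by 1.05 ± 0.13 (adjusted p = 0.000237), Spp1 by 0.91 ± 0.14 (adjusted p = 0.00265), Cd44 by 0.69 ± 0.11 (adjusted p = 0.00312) and Lcn2 by 1.00 ± 0.19 (adjusted p = 0.0109). These 4 also passed with any 1 of the 16 arrays left out, and without SHRSP H2O replicate 2 they were -0.87, -0.78, -0.62 and -0.83. Clu (-0.38 ± 0.09, adjusted p = 0.0448) and Vim (-0.28 ± 0.06, adjusted p = 0.0374) passed too but not without SHRSP H2O replicate 2 (adjusted p = 0.114 and 0.0608), nor in most other fits that left out 1 array. Anxa1 (-0.20 ± 0.06, adjusted p = 0.162), Krt19 (0.04 ± 0.06) and the Vcam1 probes did not pass. With candesartan, chlorothiazide and carvedilol alone, and so without any H2O array, 1 member passed (0.112% of all probes called): Gpnmb fell by 0.77 ± 0.15 (adjusted p = 0.0405), while Spp1 was -0.62 ± 0.16 (adjusted p = 0.278), Cd44 -0.50 ± 0.13 and Lcn2 -0.65 ± 0.21.

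Gpnmb was the member whose SHRSP arrays separated fully by treatment. All 12 drug arrays, from 2.00 through a median of 2.46 to 2.76, lay below all 8 vehicle arrays, which started at 2.78. For Spp1 10 of the 12 drug arrays lay below every vehicle array. For Cd44 and Vim it was 6, for Clu 4, for Lcn2 and Anxa1 2, and for Krt19 0. How many of all tested probes separate in this way, by treatment or by strain, was not counted. Among the other injury genes 2 of 34 fell over the 4 drugs, Havcr1 on GE13234 (-1.56 ± 0.20) and Timp1 (-0.67 ± 0.09). No partner and no macrophage marker passed by limma (5 of 16 and 6 of 11 at an unadjusted p under 0.05), whereas the fibroblast marker Lum (-0.25 ± 0.04) and the smooth muscle marker Cnn1 (-0.33 ± 0.07) fell. Summed intensity over the 12 SHRSP drug arrays was 82.1 to 106.0 for macrophage markers (89.2 to 113.0 with vehicle) and 62.3 to 75.3 for fibroblast markers (73.1 to 83.1 with vehicle), and their part in the member changes was not tested.

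**Figure D4:**
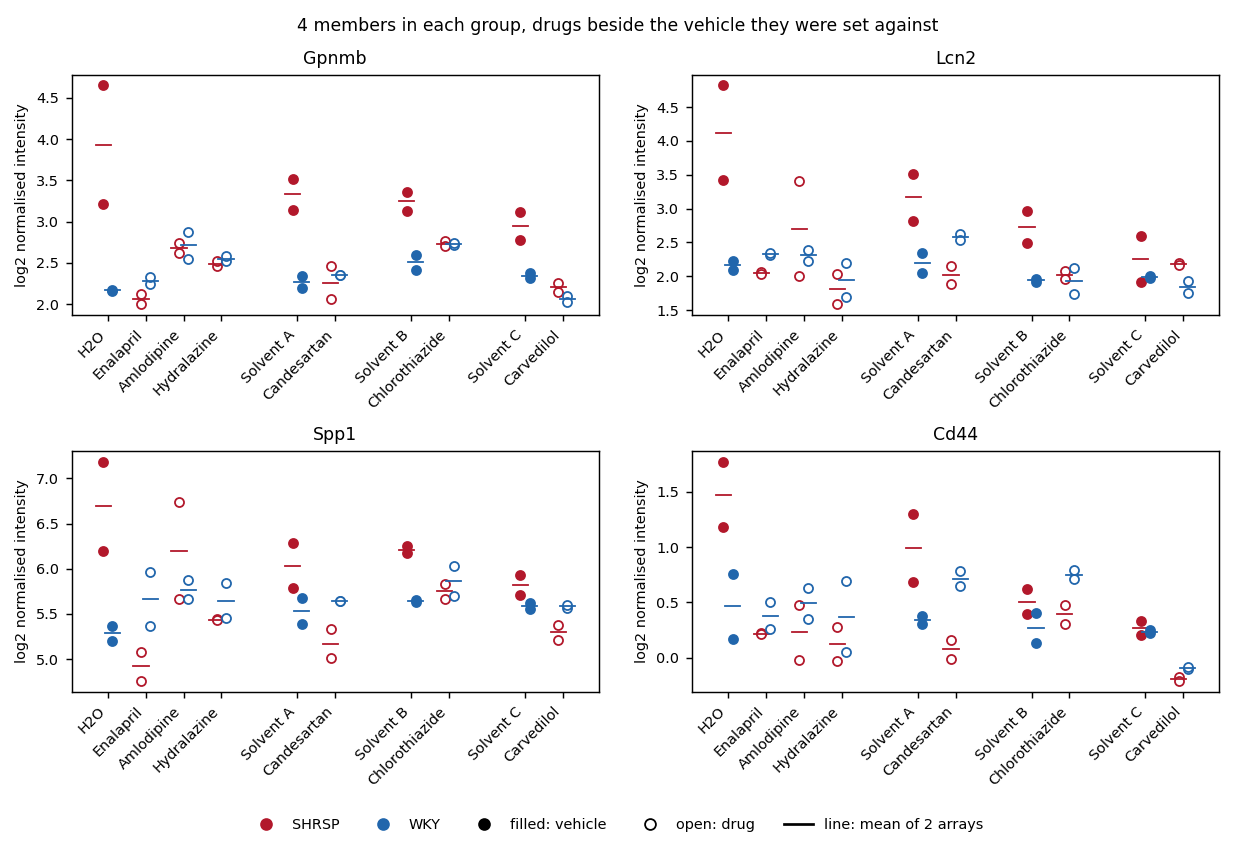
Log2 normalised intensity of Gpnmb, Lcn2, Spp1 and Cd44 on the 2 arrays of each group (filled for vehicle, open for drug, red for SHRSP, blue for WKY), with lines at group means and each drug placed beside its vehicle. SHRSP H2O arrays are high and far apart in Gpnmb (3.21 and 4.65) and Lcn2 (3.42 and 4.82) and lie above both arrays of every SHRSP drug group in Cd44. WKY Gpnmb arrays lie above their vehicle with every drug but carvedilol, where they lie below, and none of these changes passed the threshold.

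In WKY no drug moved Lcn2, Spp1, Gpnmb, Clu, Krt19, Vim, Cd44 or Anxa1 past the threshold. Both WKY Gpnmb arrays lay above both vehicle arrays with every drug but carvedilol, where they lay below. The changes were 0.12 ± 0.25 with enalapril, 0.09 ± 0.25 with candesartan and 0.22 ± 0.25 with chlorothiazide. They were 0.55 ± 0.25 with amlodipine (adjusted p = 0.154), 0.39 ± 0.25 with hydralazine (adjusted p = 0.334) and -0.28 ± 0.25 with carvedilol. With candesartan the arrays read 2.35 and 2.35 against 2.34 and 2.19. Enalapril, amlodipine and hydralazine share the H2O arrays. Calls were confined to Vcam1, whose probes both fell with amlodipine (GE20039 by 0.59 ± 0.20, GE21849 by 0.49 ± 0.10) and hydralazine (by 0.64 ± 0.20 and 0.42 ± 0.10), where 15.7% and 15.4% of all probes were called, and none of these calls passed with session as a fixed block. Endothelial cells express Vcam1, and 2 of 6 endothelial markers also fell in each of these WKY comparisons, Pecam1 (-0.36 ± 0.07) and Tek (-0.46 ± 0.09) with amlodipine and Tek (-0.33 ± 0.09) and Kdr (-0.65 ± 0.22) with hydralazine. Their summed intensity was 53.2 and 57.5 with amlodipine and 54.4 and 64.2 with hydralazine against 67.1 and 67.6 with H2O, and its part in the Vcam1 change was not tested. Enalapril (6.4%), candesartan (0.056%), chlorothiazide (0.056%) and carvedilol (0.136%) gave 0 of 10 by limma, with 3, 0, 1 and 0 members, and 5244, 512, 1473 and 1789 of all probes, at an unadjusted p under 0.05. The mean change over candesartan, chlorothiazide and carvedilol in WKY passed for 0 members (0.032% of all probes called, and 0 members and 1284 of all probes at an unadjusted p under 0.05). It was 0.01 ± 0.15 for Gpnmb, 0.11 ± 0.16 for Spp1, 0.08 ± 0.21 for Lcn2 and 0.18 ± 0.13 for Cd44.

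The difference between the strains in these 3 drug responses passed for 0 of 10 members (0.004% of all probes called, and 6 members and 1218 of all probes at an unadjusted p under 0.05). It was -0.78 ± 0.21 for Gpnmb, -0.73 ± 0.23 for Spp1, -0.68 ± 0.18 for Cd44 and -0.72 ± 0.30 for Lcn2, with adjusted p of 0.565, 0.763, 0.565 and 0.978. For enalapril it passed for 6 (2.84% of all probes called): Lcn2 (-2.24 ± 0.52), Spp1 (-2.15 ± 0.40), Gpnmb (-1.99 ± 0.36), Clu (-0.91 ± 0.24), Cd44 (-1.17 ± 0.32) and Anxa1 (-0.67 ± 0.16). Without SHRSP H2O replicate 2 Spp1 (-1.66) and Gpnmb (-1.27) passed and the other 4 did not. The titles of the WKY enalapril arrays were of another number series than those of the H2O arrays, and 1 was scanned in another session. For amlodipine and hydralazine (0.396% of all probes called in each) Gpnmb passed, at -1.80 ± 0.36 and -1.83 ± 0.36, and without SHRSP H2O replicate 2 at -1.08 and -1.11.

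Across the 20 SHRSP arrays 6 of the members that fell varied together, as a description with no test, since the arrays share vehicle, session and drug. These were Lcn2, Spp1, Gpnmb, Clu, Vim and Cd44, picked after their values were seen. Their 15 pairwise Pearson correlations ran from 0.77 to 0.90 in SHRSP and from -0.04 to 0.72 in WKY. Anxa1 and the Vcam1 probe GE21849 also fell with some drugs but were less close to these 6 genes. In SHRSP their r ran from 0.42 to 0.64 and from 0.42 to 0.75. SHRSP H2O replicate 2 is among the 20 arrays, and no r was taken without it. Of 10446 genes, the closest in SHRSP to Lcn2 were Timp1 (r = 0.95), the cytokine Il24 (0.94) and the apoptosis inhibitor Birc3 (0.93). Havcr1 on GE13234 was closest to both Spp1 (0.90) and Gpnmb (0.91), followed by Gpnmb itself and Glycam1 (0.89 and 0.86) for Spp1, and by Timp1 and the matrix protein Postn (0.90 each) for Gpnmb. Clu was closest to Lcn2, Slc25a24 and Casp12 (0.90, 0.90 and 0.89), Vim to Rhou, Gpnmb and Casp12 (0.90, 0.89 and 0.88), and Cd44 to Casp12, Klf6 and Cpne8 (0.91, 0.91 and 0.90). The genes nearest to Anxa1 were Npdc1, Gmnn and Lxn (0.89, 0.87 and 0.86), and those nearest to Krt19 were Cldn22, Ndufaf8 and Gimap5 (0.80 each). No nearest genes are given for Vcam1, whose probe with a value on every array (GE20039) lay at the floor on 10 of the 20 SHRSP arrays.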

How the data were processed

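Kidney RNA was hybridised to 40 one-colour CodeLink rat arrays, 2 in each of 20 groups. Per the file headers, the deposited intensities were background subtracted and scaled by the authors so that each array's median was 1. Of these, 9269 values were 0 or below and 6706 were missing. The deposited series table held the same values (largest difference 0 over 1337935 values), and no 2 arrays were identical.

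Intensities were quantile normalised, raised to a floor of 0.39 (the median over arrays of the first percentile of good-flagged intensities) and converted to log2 from the deposited values. A probe was tested where both arrays of at least 1 group had a good flag and every group had a value, which kept 24993 of 33849. One linear model with a term for each group was fitted with limma 3.58.1 in R 4.3.3 (20 residual degrees of freedom, empirical Bayes), with Benjamini-Hochberg adjustment over all tested probes and a threshold of 0.05. Tables and figures were made with Python 3.11.15, NumPy 2.4.6, pandas 2.3.3 and Matplotlib 3.10.9, and the model was tested on simulated data.

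Probes were named from the platform's annotation, updated through RefSeq's GRCr8 gene table: 16753 probes had 1 symbol, 165 several and 16931 none. The members and gene lists were chosen with earlier results of these data known. All member probes are named. In each list the up to 4 genes with the smallest p past the threshold are named, on the probe of highest mean intensity with a value on every array, and likeness took the 3 genes of highest r (not given for Vcam1, at the floor on 10 of 20 SHRSP arrays). Alternatives covered normalisation, floor, flag filter, scan session, array weights, arrays in the model, pooled vehicles and each array left out. The test of the strain difference between drug and vehicle arrays, the mean over 3 drugs in SHRSP, and the alternatives of the drug by strain differences were added after seeing the data. Probe sequences were not analysed here.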

Additional observations from a re-analysis of the deposited data

Results flagged for a closer look

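SHRSP H2O replicate 2 lay apart from the other 7 SHRSP vehicle arrays for Spp1 (7.18), Gpnmb (4.65), Vim (5.58) and Vcam1 on GE20039 (-0.59), in log2 intensity. Its gap to the nearest array was 0.61, 0.60, 0.70 and 0.87 of the group's whole range. WKY H2O replicate 2 lay apart for Cd44 (0.76, a gap of 0.57 of the range). In all 20 sets of 8 vehicle arrays were examined. Chance would mark about 1 in 20 sets of arrays drawn alike, but each set here mixes vehicles and scan sessions, so that rate is only a guide. For Vcam1 on GE20039 the SHRSP vehicle median lay at the floor of -1.36, so that rate does not hold there. The 4 SHRSP values come from 1 array and are not independent.

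The strains differed in how drug and vehicle arrays compared for Spp1 (-0.91 on the log2 scale), Gpnmb (-1.08) and Cd44 (-0.78), by the limma interaction. The enalapril response differed between SHRSP and WKY for Lcn2 (-2.24), Spp1 (-2.15), Gpnmb (-1.99), Clu (-0.91), Cd44 (-1.17) and Anxa1 (-0.67). For Gpnmb it also differed with amlodipine (-1.80) and hydralazine (-1.83), comparisons that share the H2O arrays with enalapril. Without SHRSP H2O replicate 2 the Gpnmb differences passed with each of these drugs (-1.27 with enalapril, -1.08 with amlodipine and -1.11 with hydralazine), as did Spp1 with enalapril (-1.66). The enalapril differences of Lcn2 (-1.54), Clu (-0.58), Cd44 (-0.88) and Anxa1 (-0.54) then did not pass. Between drug and vehicle arrays Gpnmb (-0.90) and Cd44 (-0.71) then passed and Spp1 (-0.79) did not.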

How the results depend on the processing

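Values are numbers of member probes past the threshold. The number of all probes called also varies with the setting and is not given beside them. These counts thus cannot tell a change in the members from a change over all probes. The strain comparison on vehicle arrays gave 9 with any array left out. With enalapril in SHRSP the 7 became 4 without the flag filter, 4 with a good flag required on all arrays (which left 6 member probes), 0 with only the compared groups in the model, and 1 to 8 with an array left out (1 without SHRSP H2O replicate 2, 4 without either enalapril array). Candesartan in SHRSP went from 0 to 4 with array weights. Amlodipine in SHRSP went from 5 to 3 with the stricter flag, 1 with session as a fixed block, 3 with session as a random block (correlation 0.453), 0 with only the compared groups, 3 with vehicles pooled, and 3 to 7 with an array left out. Hydralazine in SHRSP went from 8 to 5 with the stricter flag, 1 with the fixed block, 5 with array weights, 0 with only the compared groups, and 5 to 8 with an array left out. The 4 calls in WKY became 2 on the authors' series table, 0 with the stricter flag, 0 with the fixed block, 1 with the random block, 1 with array weights, 0 with only the compared groups, 2 with vehicles pooled, and 1 to 4 with an array left out (1 without WKY H2O replicate 1). The mean over 4 drugs in SHRSP went from 6 to 2 with only the compared groups, 1 over 3 drugs, and 4 to 6 with an array left out. The strain difference over 3 drugs went from 0 to 1 with only the compared groups. Enalapril and candesartan against chlorothiazide and carvedilol gave 0 to 2 with an array left out (2 without SHRSP H2O replicate 1). The strain difference of drug minus vehicle went from 3 to 1 with the stricter flag and 1 to 6 with an array left out (6 without SHRSP H2O replicate 1, 5 without SHRSP amlodipine replicate 1, 1 without SHRSP Solvent B replicate 1 or WKY Solvent A replicate 2). The 8 drug by strain differences became 4 on the authors' series table, 4 with the stricter flag, 4 with array weights, 0 with only the compared groups, and 2 to 19 with an array left out (19 without SHRSP H2O replicate 1, 2 without WKY H2O replicate 1, 4 without SHRSP H2O replicate 2). The stricter flag and smaller models leave fewer probes or arrays by construction, and otherwise the cause was not tested. Among single member values 4562 kept their side of the threshold, 213 lost it and 51 gained it, and none called changed sign. A fit without an array assumes that the lone array of its group varies like the other groups. No paired analysis was possible because replicate numbers only name the arrays.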
